A study of Populus ussuriensis with 8 samples.

Results

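The genes described here are poplar genes whose use of transcript isoforms differed between 0.5 h and 1 h after stems were cut. They were chosen from the data. A gene had to reach a summed level of at least 5 FPKM (fragments per transcript length and library size) in each of 8 libraries. At least 1 of its isoforms had to differ by 10 percentage points or more in mean share between the times, with no overlap between the 4 libraries of 1 h and the 4 of 0.5 h. Its summed level had to change by less than 2 in mean log2(FPKM + 1), a limit that left out 0 genes. Of 36385 genes listed, 7725 had 2 or more isoforms and the minimum level, and 16 of these (0.207%) met the rule. A further 8 genes reached 10 points but overlapped between the times. Because the change between times chose these genes, that change is given as a description, without a test.

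The libraries came from the basal ends (0.5 cm) of in vitro stem cuttings of Populus ussuriensis, kept on Murashige and Skoog medium without addition (untreated) or with 1 µM methyl jasmonate (MeJA). Cuttings were harvested at 0.5 h or 1 h, which gave 4 groups of 2 libraries, with and without MeJA at each time. The growth and treatment texts of the labels differ on the age of the source plants. Whether replicates were grown as separate cultures is not stated, and the p-values therefore reflect a spread between libraries that could be technical. All groups were cut, and no library from uncut stems was used here. No source used here gives a batch, and any batch that coincided with harvest time cannot be told apart from it.

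A gene can give several transcripts through alternative splicing, alternative start sites or alternative ends. In plants the retention of an intron is a common form of alternative splicing, and transcripts that carry an early stop codon can be degraded by nonsense-mediated decay. Splicing choices in plants are known to respond to light, temperature, the circadian clock and stress. Methyl jasmonate is the methyl ester of jasmonic acid, a hormone of wound and defence responses.

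The share of an isoform was its FPKM as a percentage of the summed FPKM of its gene in the same library. A factor that scales a whole library cancels in this share. Shares are estimates, since isoforms of a gene overlap and the way reads were divided between them is not given in the sources used here. How well the Potri transcript models match the transcripts of the sampled species, Populus ussuriensis, was not tested. In the 2985 genes with 2 isoforms and the minimum level, the larger isoform held a median of 59.0% (quartiles 55.1% and 64.5%). Shares in these genes were thus mostly close to even. Genes with more isoforms were not summarised in this way. The files do not pair the Potri identifiers with gene names or descriptions. No function is therefore given for any gene, the labelled tissue was not checked against marker genes, and no sequence is shown. In these bulk samples fewer cells of a type and less RNA per cell cannot be told apart.

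Library sums over the listed transcripts lay between 549538 and 577002 FPKM, and 22555 to 23236 genes per library reached 1 FPKM. Absolute depth is unknown. Relative depth was read as the most frequent ratio between libraries of values under 1 FPKM in single-isoform genes. It was 0.936 to 0.995 of that of untreated 0.5 h replicate 1 in the other 7 libraries. Only 10.9% to 12.5% of the ratios lay at that value, so it is a rough estimate.

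Together the 16 genes had 82 listed isoforms, of which 29 met the share criterion, 16 by gaining and 13 by losing share from 0.5 h to 1 h. The leading isoform of a gene is the qualifying isoform with the largest change. It gained share in 9 genes and lost it in 7 (isoforms of a gene with 2 change by equal amounts in opposite directions, and the lower number was then taken). The changes of the leading isoforms ran from 10.1 to 31.3 points in size. Over all 7725 genes the largest change of any isoform had a median of 1.62 points, with 3.77 points at the 90th percentile. By mean share, the most abundant isoform was a different one at 1 h than at 0.5 h in 8 of the 16 genes. Of these, Potri.006G021700 had 19.1% for isoform 1 and 18.3% for isoform 8 at 1 h. How often the most abundant isoform differed over all 7725 genes was not counted. Isoform 1 qualified in 13 genes, gaining share in 10 and losing it in 3. In the 8 genes with 2 isoforms it qualifies whenever isoform 2 does, so this count is partly fixed. The direction of isoform 1 over all 7725 genes was not counted.

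**Figure D1:**
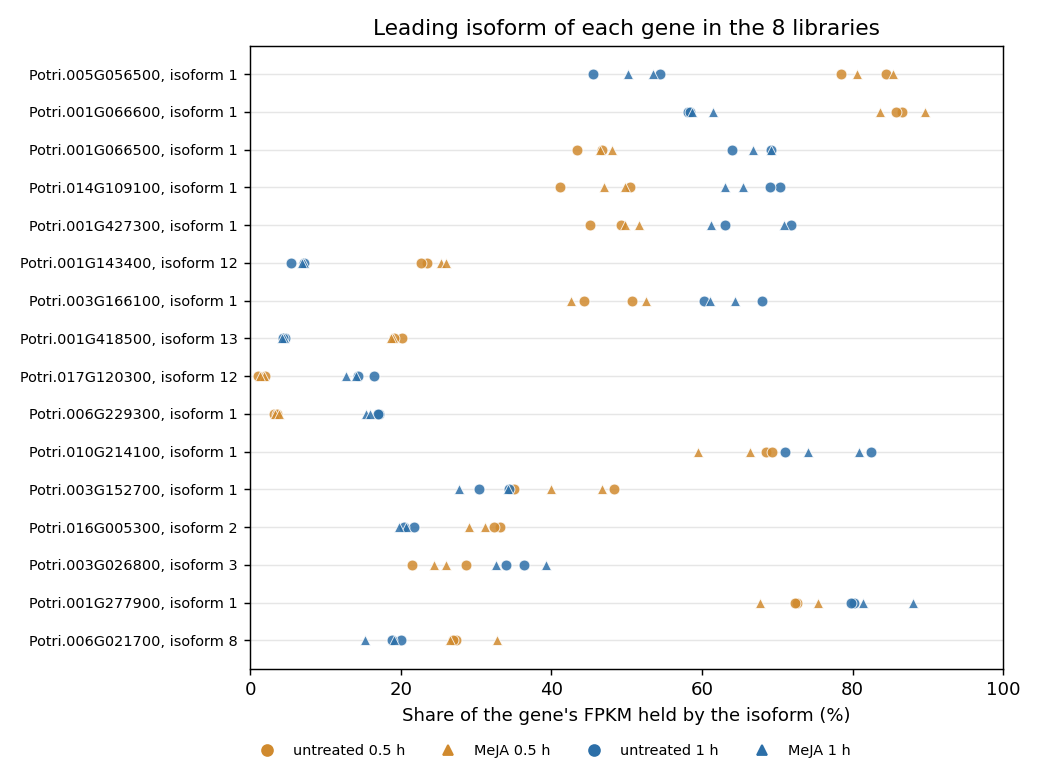
Share of the leading isoform of each of the 16 genes in the 8 libraries. The x axis is the share of the gene's FPKM in percent, orange marks 0.5 h, blue marks 1 h, circles are untreated and triangles MeJA libraries. The times do not overlap in any row because the rule required it, and the distance between them ranges from 24.0 points in the top row to 0.703 points for Potri.003G152700.

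The genes had a median of 2.5 isoforms, against 3 for all 7725 genes. A mean level of 15.2 FPKM (median over the genes, range 9.73 to 2150) compared with 17.8 FPKM for all. Of the 16 genes, 8 had 2 isoforms, 3 had 3, 1 had 8 and 4 had 12 or 13. Genes with 12 or more isoforms made up 50 of the 7725 and gave 4 of the 16, or 8% of their class. The share was 0.268% of genes with 2 isoforms and 0.155% of 1940 genes with 3. It was 0 of 2466 genes with 4 to 7 isoforms and 0.352% of 284 genes with 8 to 11. A gene with more isoforms has more that could qualify. By their identifiers, 6 genes lay on chromosome 1, 3 on chromosome 3, 2 on chromosome 6 and 1 each on chromosomes 5, 10, 14, 16 and 17. The spread of all 7725 genes over chromosomes was not counted, and the list ends within chromosome 17. The summed level was higher at 1 h in 8 genes and lower in 8, with a median log2 change of -0.10, while it was lower in 65.0% of the 7725 genes, with a median of -0.16.

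The largest change was in Potri.005G056500, a gene with 3 isoforms on chromosome 5. Its isoform 1 held 84.4% and 78.5% in the untreated and 80.6% and 85.4% in the MeJA libraries of 0.5 h. At 1 h the same isoform held 54.4% and 45.5% without and 53.5% and 50.2% with MeJA, 24.0 points below the nearest library of 0.5 h. The mean went from 82.2% ± 3.26 to 50.9% ± 4.02 (SD, n = 4). Isoform 2 went from 8.99% ± 0.888 to 22.3% ± 4.84, and isoform 3 from 8.79% ± 2.43 to 26.8% ± 8.36. The 2 replicates of untreated 1 h differed most here, with isoform 3 at 23.3% and 37.4%. Levels show which isoform moved. For isoform 1 the mean was 18.9 ± 0.817 FPKM in the earlier and 3.68 ± 0.64 FPKM in the later libraries, 5.13 times lower. Isoform 2 stood at 2.07 ± 0.303 and 1.61 ± 0.368 FPKM, a difference larger than either SD though the libraries overlapped. Isoform 3 stood at 2.03 ± 0.633 and 1.92 ± 0.525, within the spread of the libraries. The summed level went from 23.0 ± 1.34 to 7.20 ± 0.824 FPKM, the strongest decline among the 16 (log2 change -1.55). All 3 isoforms had a lower mean level at 1 h, and the abundant isoform 1 by far the most.

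Potri.001G066600 and Potri.001G066500 carry consecutive identifiers on chromosome 1, and each has 2 isoforms. In Potri.001G066600, isoform 1 held 86.5% and 85.8% in the untreated and 89.6% and 83.7% in the MeJA libraries of 0.5 h. It held 58.2%, 58.3%, 61.5% and 58.7% at 1 h in the same order. The times were 22.2 points apart at their nearest, and the means were 86.4% ± 2.45 and 59.2% ± 1.55 (SD, n = 4). Both isoforms moved in level. Isoform 2 had a mean of 1.43 ± 0.314 FPKM and later 5.17 ± 0.54, 3.63 times higher. Isoform 1 had 9.04 ± 1.17 and later 7.49 ± 0.573 FPKM, 1.21 times lower, with no overlap between the times. The summed level went from 10.5 ± 1.35 to 12.7 ± 1.06 FPKM.

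In Potri.001G066500 the share of isoform 1 was 43.3% and 46.7% in the untreated and 48.0% and 46.5% in the MeJA libraries of 0.5 h. The 1 h libraries held 63.9%, 69.1%, 69.2% and 66.8%, so isoform 1 became the larger one in all 4. Its level was nearly the same at both times (7.57 ± 0.828 and 7.71 ± 0.78 FPKM), whereas isoform 2 stood at 8.88 ± 1.27 and then 3.76 ± 0.504 FPKM, 2.36 times lower. The adjacent identifier Potri.001G066400 went from a mean summed level of 63.7 FPKM to 7.10. Whether reads were shared between these neighbours was not tested.

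In 3 further genes with 2 isoforms the larger isoform by mean share changed from isoform 2 to isoform 1. In each of them isoform 1 was already the larger one in at least 1 library of 0.5 h. In Potri.014G109100, on chromosome 14, isoform 1 held 41.2%, 50.4%, 46.9% and 49.7% at 0.5 h (untreated, then MeJA). It held 70.4%, 69.0%, 65.4% and 63.1% at 1 h, 12.6 points clear of the nearest earlier library. The lower share of isoform 2 came with a level of 7.70 ± 1.28 FPKM at 0.5 h and 4.08 ± 0.612 at 1 h (SD, n = 4), and isoform 1 stood at 6.81 ± 0.947 and 8.23 ± 0.461. The share of isoform 1 at 1 h was lower in both MeJA libraries than in both untreated ones. Of all isoforms tested for MeJA, 32.7% did not overlap between treatments at 1 h, and this isoform did not pass (limma adjusted p = 0.975).

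Potri.001G427300, on chromosome 1, had isoform 1 at 45.1%, 49.3%, 51.7% and 49.7% at 0.5 h and at 63.0%, 71.8%, 70.9% and 61.1% at 1 h. Replicates of 1 h differed by up to 9.79 points, and the times were 9.46 points apart. Isoform 2 stood at 8.53 ± 1.32 FPKM and then 4.55 ± 0.611, and isoform 1 at 8.14 ± 0.845 and 9.25 ± 1.88.

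Potri.003G166100, on chromosome 3, had isoform 1 at 44.4%, 50.7%, 52.5% and 42.6% at 0.5 h and at 60.3%, 68.0%, 61.0% and 64.3% at 1 h. Isoform 2 went from 8.77 ± 0.855 to 6.20 ± 0.673 FPKM, with no overlap between the times. Isoform 1 went from 8.00 ± 1.29 to 10.97 ± 2.88 FPKM, with overlap. It reached 15.2 FPKM in untreated 1 h replicate 2. The mean summed level was almost the same at the times, 16.8 ± 1.46 and 17.2 ± 3.5 FPKM. Untreated 1 h replicate 2 raised the later mean, with a sum of 22.4 FPKM against 14.7 to 16.1 in the others of 1 h.

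The other 3 genes with 2 isoforms lay near the threshold. Potri.010G214100, on chromosome 10, had isoform 1 at 68.6%, 69.3%, 59.4% and 66.3% at 0.5 h and at 82.4%, 71.1%, 74.1% and 80.9% at 1 h, with 1.77 points between the times. Potri.003G152700, on chromosome 3, had isoform 1 at 35.0%, 48.3%, 46.8% and 40.0% and then at 30.4%, 34.3%, 34.2% and 27.8%. Only 0.703 points lay between its times, while replicates of untreated 0.5 h differed by 13.2 points. Potri.001G277900, on chromosome 1, had isoform 1 at 72.6%, 72.4%, 67.6% and 75.4% and then at 80.2%, 79.8%, 88.1% and 81.3%. In this gene both isoforms stood lower at 1 h, isoform 1 at 9.32 ± 2.03 and 7.37 ± 1.16 FPKM and isoform 2 at 3.59 ± 0.631 and 1.61 ± 0.543. Mean summed levels of these 3 genes were 8.44 to 12.9 FPKM at 0.5 h.

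Besides Potri.005G056500, the rule took in 2 genes with 3 isoforms. Potri.016G005300, on chromosome 16, was the second most abundant of the 16, at 418 ± 46.8 FPKM at 0.5 h and 606 ± 31.4 at 1 h (SD, n = 4). Its isoform 2 held 33.2%, 32.4%, 29.1% and 31.2% at 0.5 h and 21.8%, 20.4%, 20.7% and 19.8% at 1 h. Isoform 1 took up the difference, from 46.4% ± 1.56 to 57.2% ± 1.28, and isoform 3 held 21.2% to 22.7% in all 8 libraries. The level of isoform 1 was 195 ± 28.5 and then 347 ± 13.3 FPKM, while isoform 2 stood at 131 ± 7.19 and 125 ± 10.9. Replicates were at most 2.61 points apart, the second smallest such difference among the 16.

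Potri.003G026800, on chromosome 3, had isoform 3 at 21.5%, 28.7%, 24.4% and 26.0% at 0.5 h and at 33.9%, 36.4%, 32.7% and 39.3% at 1 h. Isoform 1 went from 66.2% ± 2.54 to 57.4% ± 2.88 and did not reach 10 points. The level of isoform 3 was 3.07 ± 0.373 and then 4.72 ± 0.813 FPKM, and that of isoform 1 was 8.11 ± 0.735 and 7.56 ± 0.369.

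**Figure D2:**
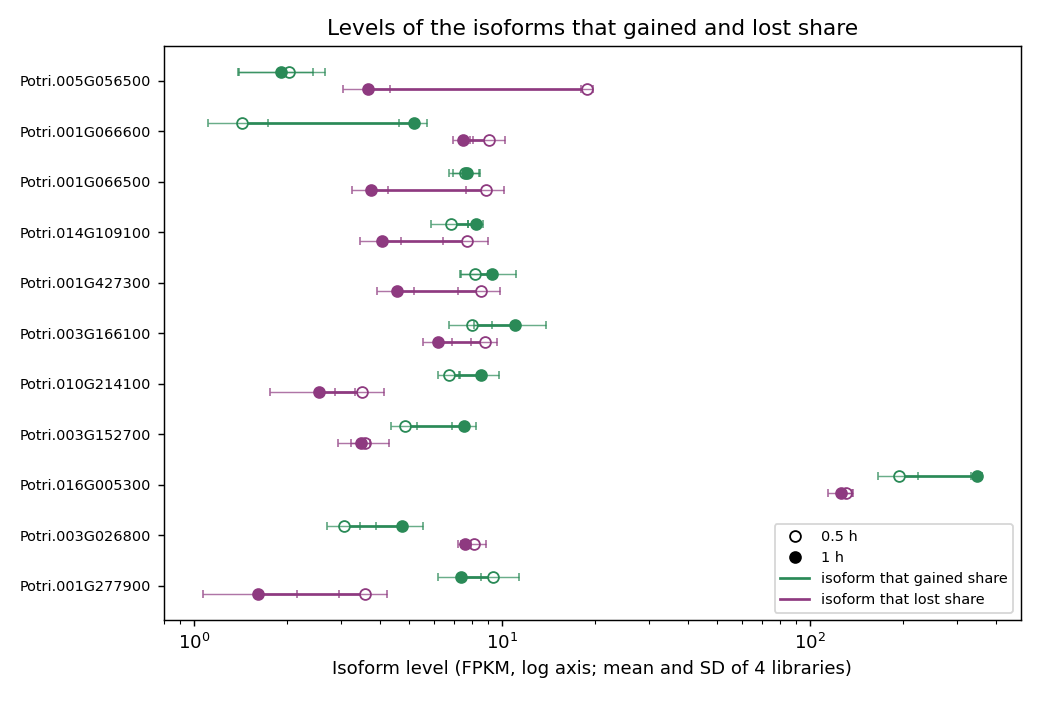
FPKM (log axis) of the isoform that gained share (green) and the isoform that lost it (purple) in the 11 genes with 2 or 3 isoforms, at 0.5 h (open) and 1 h (filled), as mean and SD of 4 libraries. The losing isoform stood lower at 1 h in 11 of 11 genes and the gaining isoform higher in 9 of 11. These directions follow partly from how the isoforms were named. Of all 7725 genes, 65.0% had a lower summed level at 1 h. The widest steps were in isoform 1 of Potri.005G056500 and isoform 2 of Potri.001G066600.

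In the 11 genes with 2 or 3 isoforms, the isoform that lost share was lower in mean FPKM at 1 h in 11. The isoform that gained share was higher in 9. Gaining and losing isoforms were named from these same values, so the directions follow partly from the choice. The exceptions were Potri.005G056500 and Potri.001G277900, where isoform 3 and isoform 1 stood at 0.941 and 0.791 times their level of 0.5 h. Isoform 2 of Potri.005G056500, which also gained share, was lower too, at 2.07 and then 1.61 FPKM. The losing isoform was 1.03, 1.04 and 1.07 times lower at 1 h in Potri.003G152700, Potri.016G005300 and Potri.003G026800, with overlap between the times. In those 3 genes the shift came with a higher level of the other isoform. Of all 7725 genes, 65.0% had a lower summed level at 1 h, with a median log2 change of -0.16. Isoform levels were not adjusted for this, which bears most on the small differences in level.

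The 4 genes with 12 or 13 isoforms showed another pattern, in which most of the change lay in 2 or 3 isoforms, always including isoform 1 and the highest-numbered or second highest-numbered isoform. In Potri.001G418500, on chromosome 1 and the most abundant of the 16 (1496 ± 50.0 FPKM at 0.5 h, 2804 ± 157 at 1 h; SD, n = 4), isoform 13 held 20.1%, 19.1%, 18.9% and 18.7% at 0.5 h. At 1 h it held 4.56%, 4.36%, 4.45% and 4.24%. Isoform 1 held 2.57%, 2.89%, 2.85% and 2.66% and then 13.6%, 13.8%, 13.7% and 14.1%. Replicates differed by at most 1.03 points in any isoform of this gene. No other isoform of it changed its mean share by 1 point. In level, isoform 1 went from 41.1 ± 3.1 to 386 ± 23.5 FPKM, 9.4 times higher.

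Potri.001G143400, also on chromosome 1, with 12 isoforms, had isoform 12 at 23.5%, 22.6%, 25.3% and 26.0% at 0.5 h and at 7.09%, 5.46%, 7.10% and 6.85% at 1 h. Its isoform 1 went from 3.24% ± 0.484 to 13.9% ± 1.08 (SD, n = 4). The remaining 10 isoforms each changed by at most 1.43 points.

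In Potri.006G229300, on chromosome 6, isoform 1 held 3.20%, 3.58%, 3.30% and 3.84% at 0.5 h and 17.2%, 16.9%, 15.4% and 15.9% at 1 h. The share it gained came from different isoforms. In 3 libraries of 0.5 h, isoform 11 held 21.5%, 24.3% and 23.1%, but in MeJA 0.5 h replicate 2 it held 5.91%. In that library isoform 12 held 28.4%, against 8.18%, 8.58% and 8.46% in the others of 0.5 h. Replicates of MeJA 0.5 h thus differed by 19.9 points in an isoform, the widest replicate difference among the 16 genes.

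Potri.017G120300, on chromosome 17, had isoform 12 at 1.96%, 1.05%, 1.80% and 1.29% at 0.5 h and at 16.4%, 14.3%, 12.8% and 14.1% at 1 h. At 0.5 h isoform 1 was high without MeJA (10.4% and 13.3%) and isoform 11 with it (13.2% and 15.9%). Isoform 1 held 2.02% and 0.728% with MeJA at that time, and isoform 11 held 1.03% and 1.11% without. At 1 h both were at 3.59% or less in all 4 libraries. This gene's summed level went from 33.7 ± 3.51 to 15.8 ± 1.58 FPKM.

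**Figure D3:**
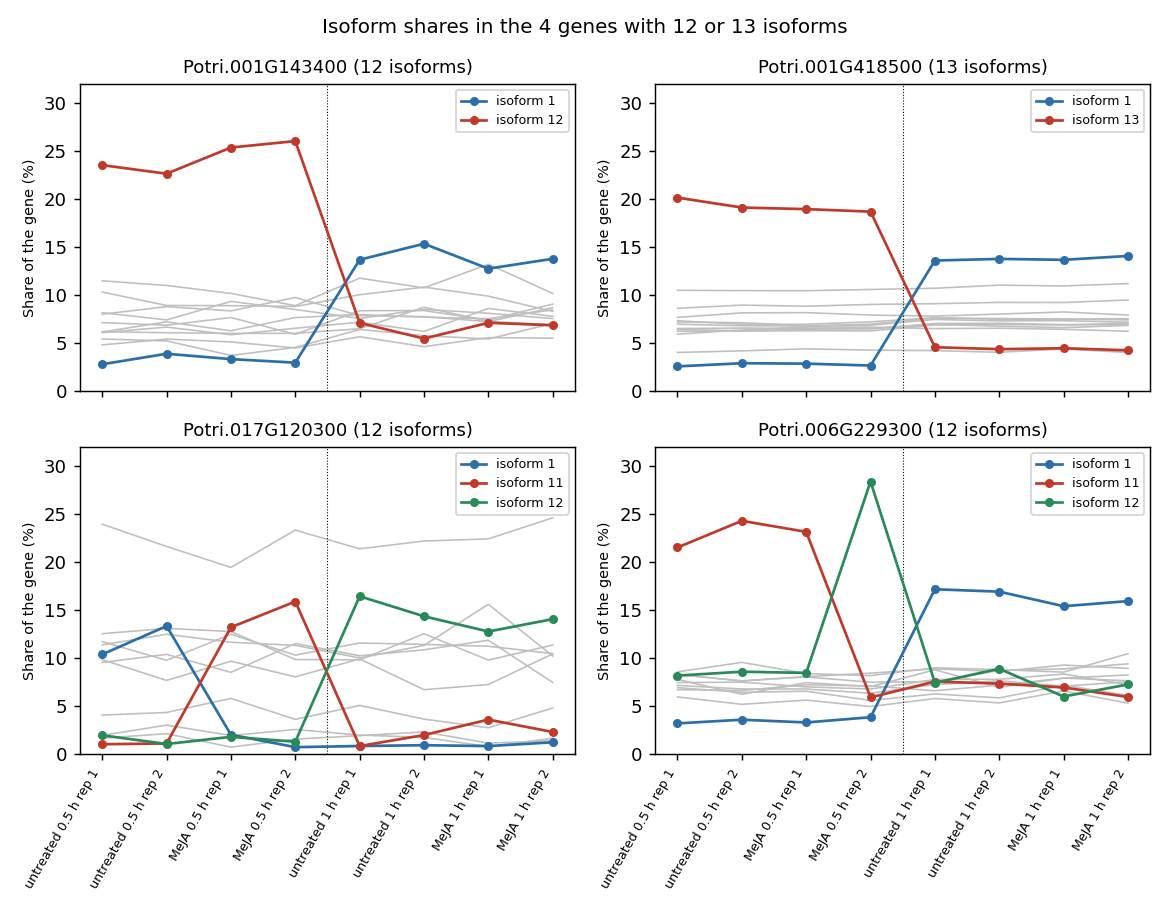
Isoform shares in percent of the gene in the 4 genes with 12 or 13 isoforms, by library, with the 4 libraries of 0.5 h left of the dotted line and the 4 of 1 h right of it. Coloured lines are isoforms whose share ranged over 10 points or more, grey lines the others, and lines only join libraries. In Potri.001G418500 isoform 13 lies at 18.7% to 20.1% on the left and at 4.24% to 4.56% on the right, and in Potri.006G229300 a single library of 0.5 h (MeJA replicate 2) has isoform 12 at 28.4%.

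Jumps of this kind also occurred without regard to time. Among the 50 genes with 12 or more isoforms, replicates of some group differed by 10 points or more in an isoform in 8 (16%), against 218 of 2985 genes with 2 isoforms (7.3%). The share was 9.43% with 3 isoforms, 8.39% with 4 to 7 and 3.87% with 8 to 11, so it did not rise steadily with the number of isoforms. Of the 4 genes with 12 or 13 isoforms described here, 1 was among the 8, Potri.006G229300. In Potri.010G072200, which has 14 isoforms, does not meet the rule and was chosen after its values were seen, isoform 12 held 35.1% to 36.8% in 6 libraries. In untreated 1 h replicate 2 and MeJA 0.5 h replicate 2 it held 4.53% and 4.96%, and isoform 11 held 35.5% and 34.3%. How reads were divided among the isoforms of such genes, and its part in the shifts of the 4 genes with 12 or 13, was not tested. Without these 4 genes, 12 remain.

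Potri.006G021700, on chromosome 6, has 8 isoforms and was the gene just inside the threshold. Its isoform 8 held 27.3%, 26.9%, 26.5% and 32.7% at 0.5 h and 20.0%, 18.8%, 15.3% and 19.1% at 1 h. The other 7 isoforms each gained between 0.51 and 2.77 points. The next members above it were Potri.001G277900 and Potri.003G026800, at 10.3 and 10.4 points. Just outside lay isoform 13 of Potri.001G368000 (15.6% ± 0.846 to 6.10% ± 0.511, SD, n = 4), isoform 1 of Potri.005G254200 (70.6% ± 0.911 to 61.2% ± 6.57) and isoform 2 of Potri.003G093700 (20.4% ± 1.45 to 29.7% ± 4.38), with changes of -9.52, -9.38 and 9.22 points.

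Within each treatment the shift had the same direction in all 16 genes, which the requirement of no overlap fixes. In untreated cuttings the leading isoforms changed by 7.47 to 31.5 points and in MeJA-treated cuttings by 9.86 to 31.2 points. The widest gaps between treatments were in Potri.014G109100 (23.9 points untreated, 15.9 with MeJA) and Potri.010G214100 (7.79 and 14.6).

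The MeJA comparisons were not used to choose the genes and were tested across all isoforms. The question was whether MeJA altered isoform shares at either time, or altered the shift between times. The rule does favour isoforms that vary little within a time, so few MeJA differences among their leading isoforms follow partly from the choice. Of 24868 isoforms with a mean share of 10% to 90%, 0 had a MeJA difference at 0.5 h at an adjusted p of 0.05 (limma on log2 odds of the share), 0% of those tested, and 1246 (5.01%) had an unadjusted p under 0.05. At 1 h the counts were 0 (0%) and 1285 (5.17%), for the interaction with time 0 (0%) and 1288 (5.18%), and over both times 0 (0%) and 1258 (5.06%).

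All 16 genes had isoforms in this test, 40 of the 82 in all. Of these 40, 0 had an adjusted p or even an unadjusted p under 0.05 in any of the 4 comparisons (limma). For the 14 leading isoforms tested, the MeJA difference in log2 odds lay between -0.34 and 0.20 at 0.5 h and between -0.32 and 0.34 at 1 h, with standard errors of 0.083 to 0.27. Their 95% intervals reached from -0.96 to 0.71 at 0.5 h and from -0.69 to 0.82 at 1 h. In percentage points the intervals reached from -15.8 to 12.7 and from -12.4 to 11.8, so differences as large as the threshold of the rule could have been missed in some of these genes. On that scale 1 leading isoform, isoform 12 of Potri.001G143400 at 0.5 h (2.61 ± 1.01 points, SE), had an unadjusted p under 0.05 (limma adjusted p = 0.978). Shares of the leading isoform did not overlap between MeJA and untreated libraries in 5 of 16 genes at 0.5 h and 5 of 16 at 1 h, where 33.3% and 32.7% of all isoforms tested did not overlap.

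**Figure D4:**
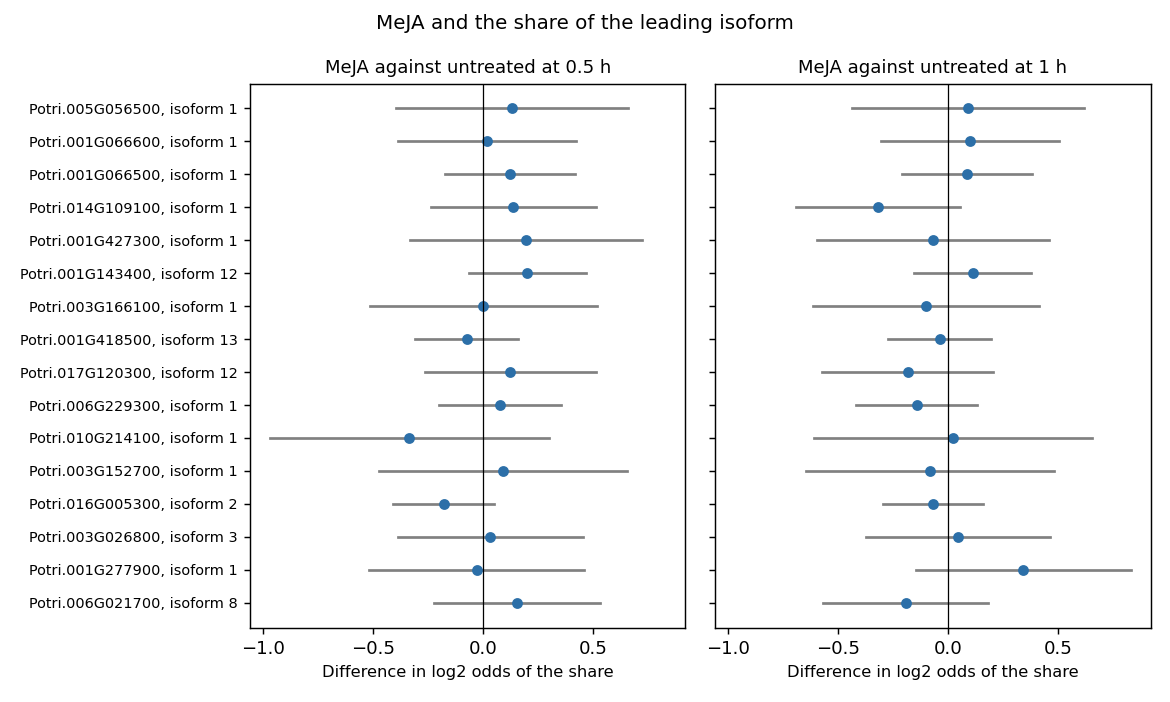
Difference between MeJA and untreated cuttings in the log2 odds of the share of each leading isoform, at 0.5 h (left) and 1 h (right). Points are limma estimates from the fit without a filter on mean share, which covers all 16 leading isoforms, and lines are 95% intervals. Each interval includes 0.

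The leading isoforms of Potri.006G229300 and Potri.017G120300 had mean shares under 10% and were tested only without the filter on mean share. In that fit, which covered all 82 isoforms of the 16 genes among 26952, 1 isoform (0.00371%) passed for MeJA at 0.5 h. It was isoform 11 of Potri.017G120300, the isoform at 13.2% and 15.9% with MeJA and 1.03% and 1.11% without, with a difference in log2 odds of 2.92 ± 0.21 (SE; limma adjusted p = 0.0231). At 1 h its difference was 0.51 ± 0.21 (limma adjusted p = 0.955). The difference between the times did not pass (interaction -2.41 ± 0.30, limma adjusted p = 0.947). Isoform 1 of the same gene moved the opposite way at 0.5 h, by -2.35 ± 0.25, and did not pass (limma adjusted p = 0.186). The summed level of the gene was 36.1 ± 3.05 FPKM without and 31.2 ± 1.96 with MeJA at 0.5 h (SD, n = 2). Tested as transcript levels, isoform 11 differed by 2.00 ± 0.16 and isoform 1 by -1.90 ± 0.16 on the log2(FPKM + 1) scale, both at a limma adjusted p of 0.0051, and these were the 2 transcripts called of 47164 (0.00424%). As isoform shares of a gene sum to 100%, the 2 values are not separate events. This gene has 12 isoforms. In the class of 12 or more, replicates of a group differed by 10 points or more in 16% of genes. This gene was not among them, as its replicates differed by at most 5.38 points in any isoform. The part of read division among isoforms in this call was not tested.

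The summed levels of the 16 genes were tested for MeJA among 24347 genes. At 0.5 h 0 genes of the series passed (0%), with 1899 (7.8%) at an unadjusted p under 0.05 in limma. At 1 h 0 passed (0%) and 1444 (5.93%) were under it, and for the interaction 0 (0%) and 2268 (9.32%). Of the 16, 0 passed in any of these, 0 had an unadjusted p under 0.05 at either time, and 2 had one for the interaction. Their MeJA differences lay between -0.23 and 0.31 at 0.5 h and between -0.27 and 0.21 at 1 h on the log2(FPKM + 1) scale. The smallest interaction p was that of Potri.006G021700, whose level was 26.5 ± 1.59 FPKM untreated and 31.6 ± 2.13 with MeJA at 0.5 h, then 34.2 ± 3.92 and 29.1 ± 1.99 at 1 h (SD, n = 2; -0.47 ± 0.16 SE, limma adjusted p = 0.408). Next was Potri.001G427300, at 18.1 ± 0.376 and 15.3 ± 1.94 FPKM at 0.5 h and 12.7 ± 0.533 and 14.9 ± 2.57 at 1 h (0.44 ± 0.19, limma adjusted p = 0.505). Summed levels did not overlap between treatments in 10 of the 16 genes at 0.5 h and in 4 at 1 h, where 36.5% and 36% of all genes did not overlap.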

How the data were processed

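For each of the 8 libraries the authors deposited 1 table of values for 65535 transcripts. No unit is named by headers or labels. The values the authors deposited were read as FPKM, since they are fractional and unlogged, with library sums of 549538 to 577002. The submitters' processing notes list HISAT2 2.1.0 and Bowtie2 2.2.3 with no role. Quantifier, build, annotation and strand setting: not given in the sources used here. The list ends within chromosome 17, and later identifiers were not analysed here.

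Gene levels are sums over transcripts. Isoform odds, log2((value + 0.5)/(rest of gene + 0.5)), for mean shares of 10% to 90%, and log2(FPKM + 1) of sums, for genes at 1 FPKM or more in 2 libraries, entered limma 3.58.1 (R 4.3.3), which fitted 4 group means with a variance trend and robust moderation. MeJA over both times used an additive model. Benjamini-Hochberg adjustment ran over each whole table, with calls at 0.05. The procedure was tested on simulated data. Alternatives were other filters, pseudocounts, scalings, a replicate block and leaving out each library. A count test, and planned lists of splicing regulators, functions and tissue markers, were not run, as the files hold neither counts nor descriptions.

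The genes and lists were chosen with earlier results of these data known. The rule for named genes took the 20 largest changes (all 16 genes here), 3 genes on each side of the threshold and any gene called for MeJA. Reads shared with paralogs or with overlapping or antisense genes could not be separated.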

Additional observations from a re-analysis of the deposited data

How the results depend on the processing

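The count of 16 genes depended on the thresholds. It was 142 at 5 points, 7 at 15 points and 59 with a minimum level of 1 FPKM. Untreated and MeJA libraries alone gave 54 and 59 genes, which held 12 and 16 of the 16 genes. With 1 treatment alone, no overlap is asked of 2 against 2 libraries, which is easier to meet. For the 16 genes, no overlap within any subset of the libraries is fixed by their choice. Leaving out each library gave 16 to 21 genes, of which 13 to 16 were among the 16. Leaving out genes of 12 or more isoforms, or genes whose replicates differed by 10 points, both chosen after seeing the data, left 12 and 12. The change of each leading isoform kept its direction in 160 of 160 tries, a direction that the choice of genes fixes.

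For MeJA, no filter on mean share gave 1 isoform at 0.5 h, and no filter on low sums gave 35 genes at 0.5 h, 19 at 1 h and 36 for the interaction, with 0 of the 16 genes among them; the cause was not tested. Transcripts in place of genes, chosen after seeing the data, gave 2 at 0.5 h. Leaving out each library gave 0 to 1 isoforms in the tests at 0.5 h, at 1 h and of the interaction (0 to 1 in each), and 0 to 0 over both times. The isoform called without MeJA 0.5 h replicate 1 was isoform 11 of Potri.006G229300 (-2.10 ± 0.14 log2 odds, limma adjusted p = 0.0358), from replicate 2 alone. Without untreated 0.5 h replicate 2, or without untreated 1 h replicate 2, the isoforms called were of other genes. For gene sums the ranges were 0 to 1, 0 to 46 and 0 to 9, with 0 of the 16 genes. Those of 46 and 9 came without MeJA 1 h replicate 2, and those of 1 without untreated 0.5 h replicate 1 or 2 or MeJA 0.5 h replicate 1. In such fits the remaining library of a group borrows its spread from the others.

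With the replicate block 0 isoforms and 0 genes were called for MeJA in each test. Same-numbered libraries did not deviate together (correlations -0.0134 to 0.0202 for isoforms and -0.116 to 0.0328 for gene sums). The effect of depth could not be measured without counts.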
